A study of Rattus norvegicus with 6 samples.

Results

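The cytosolic ribosomal protein genes of the rat were examined in sensory neurons of spontaneously hypertensive rats (SHRs), isolated from dorsal root ganglia (DRGs) at L1-L2. This set of genes was chosen with earlier results of these data known. Its members were taken by name and gene type. They are protein-coding rows of the count table whose symbol is that of a protein of the large (Rpl, Rplp) or small (Rps, Rpsa) subunit, without the S6 kinases. The rule found 97 rows among the 25689 genes of the table, 59 of the large and 38 of the small subunit. They carried 87 distinct symbols, because 8 symbols stood on several rows, 18 rows in all.

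PRATA is the surgical ablation of the perirenal adipose tissue on both sides, and sham is the operation without the ablation. The study asked how PRATA changes gene expression in the sensory neurons that serve this fat depot, and sequenced 3 PRATA and 3 sham samples taken 4 weeks after the operation. All 6 samples came from wild type SHRs, for which the labels give an age of 6 to 8 weeks, an age below that at purchase in the study's methods. After digestion with collagenase and trypsin, neurons were separated from glia only by their slower adhesion in a short culture, so that other cells of the ganglion can remain. Nothing states whether a sample is 1 rat or a pool, and p-values measure the spread between these samples.

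Ribosomal proteins are the protein part of the ribosome, and most are needed in equal numbers, since each sits once in every particle. Their mRNAs begin with a C followed by a run of pyrimidines, the 5′ terminal oligopyrimidine (TOP) tract, through which the kinase mTOR and the RNA-binding protein Larp1 control their translation and storage together with those of elongation factors. In sensory neurons these mRNAs are abundant in the cell body and are also carried into the axon, where local translation serves growth and repair.

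Start-site sequences were taken for the symbols that RefSeq lists on the rat assembly GRCr8, 66 of the 87. The deposited table was made on a build that is not given in the sources used here, so the coordinates below belong to GRCr8 alone. Each line runs 5′ to 3′ on the strand of the gene from 10 bases before to 20 bases after the RefSeq gene start, and capitals mark the longest run of C and T where it has at least 6 bases. They are shown because the TOP tract is the feature that ribosomal protein mRNAs are known to share, and they were picked to show it beside 2 windows that lack it.
Rpl14, chr8:129163610-129163639, plus strand: ggCCCTCTCCCTTCTCgctgagcgccgcca
Rpl31, chr9:49143101-49143130, plus strand: atccctcgcgCCTTTCCTTTCCaacttggg
Rpl19, chr10:83519054-83519083, plus strand: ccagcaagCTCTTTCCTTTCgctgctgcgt
Rpl10a, chr20:6390523-6390552, plus strand: cttctgCCTTCTTTTCCggttcccgcagcc
Rplp1, chr8:71290853-71290882, minus strand: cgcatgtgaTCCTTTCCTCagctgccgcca
Rpl13, chr19:68062504-68062533, plus strand: cggtgcccgaTCCTTTCCgctcggccgttc
Rplp0, chr12:46718371-46718400, minus strand: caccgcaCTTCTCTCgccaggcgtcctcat
Rps3a, chr2:173827023-173827052, minus strand: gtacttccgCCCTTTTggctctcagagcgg
Rps27, chr2:177964587-177964616, minus strand: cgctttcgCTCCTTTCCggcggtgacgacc
Rps27l, chr8:76443648-76443677, plus strand: ttcatttgtcattatttgtggtgtccagag
Rps6, chr5:106420521-106420550, minus strand: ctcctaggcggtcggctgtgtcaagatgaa

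A run of at least 6 C or T lay in the window of 49 of the 66 members (74.2%), against 27% of the 27457 promoters in the table. The hexamer CTTTCC, read on the strand of the gene and often part of such a run, lay in 14 (21.2%), against 1.18%. The hexamer CCGGAA, the core of ETS family sites, lay on either strand of the 300 promoter bases in 32 (48.5%), against 15.8%. A match is a description of these letters, and a window without one says only that the letters are not there, since annotated starts can lie a few bases off. The 45 tested members with the run had a median log2 fold change (PRATA over sham) of -0.43, and 23 of them had an unadjusted edgeR p under 0.05. The 16 without it had a median of -0.49 and 11 of them did. At that threshold 10.1% of all genes tested were lower after PRATA and 8.19% higher.

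Before the values, the libraries themselves. Total counts ran from 5892967 in sham replicate 2 to 15226952 in sham replicate 1, and a floor of 3 counts stood for 0.207 to 0.468 CPM, the TMM-scaled counts of a gene relative to library size. PRATA replicate 3 and sham replicate 1 stood apart from the other 4 libraries in which copy of the 7SL RNA took the counts: Rn7sl1 had 55070 and 59200 CPM in these 2 libraries and 11480 to 15310 CPM in the other 4. One library of each group is of that kind, so results are also given without the pair. The sensory neuron markers fixed for the label were expressed, with a summed level of 10940 to 23550 CPM over 21 genes. Satellite glia markers summed to 3343 to 8735 CPM over 9 genes, of which Apoe alone had 2779 to 7473 CPM. The glial transcription factor Sox10 had 42.0 to 267 CPM, so the samples held RNA of glia too.

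Counts on ribosomal protein genes made up a smaller share of the library after PRATA. In replicate order the share was 0.805%, 0.946% and 0.843% after PRATA, compared with 1.08%, 1.24% and 1.38% after sham. The highest PRATA sample was below the lowest sham sample, and sham replicate 3 was the highest. The means were 0.865% ± 0.0730 and 1.23% ± 0.152 (SD, n = 3 each), a log2 ratio of -0.51. Both subunits took part: the large subunit share was 0.586% ± 0.0491 against 0.837% ± 0.109 and the small subunit share 0.279% ± 0.0244 against 0.397% ± 0.0433 (SD, n = 3 each). No test was made on these sums. In bulk RNA, fewer cells of a type and less RNA per cell cannot be told apart.

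**Figure D1:**
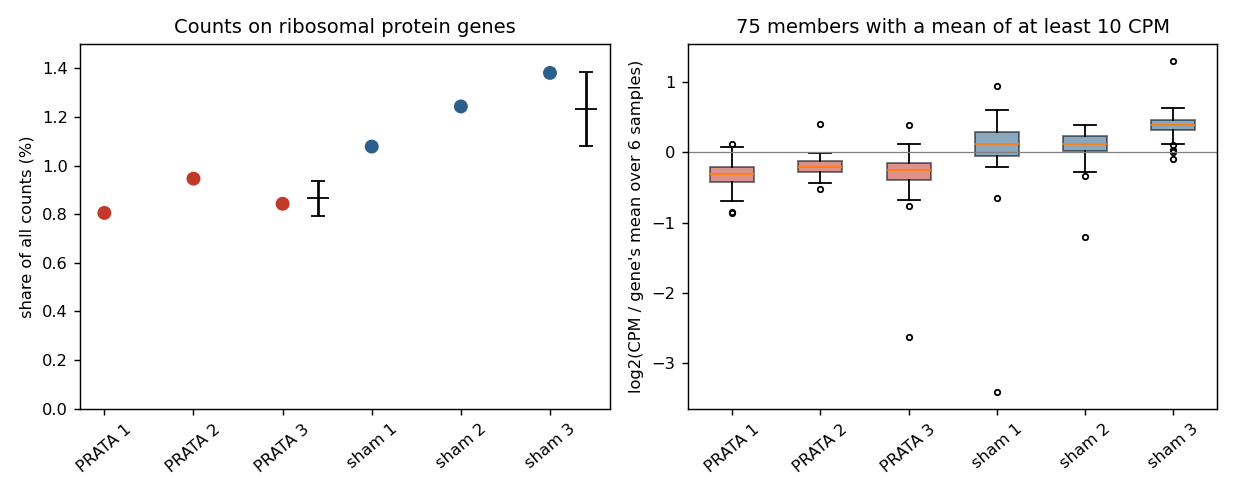
Left, the share of all counts (%) on ribosomal protein genes in each of the 6 samples, with the mean ± SD of each group to the right of its points. Right, box plots by sample of log2(CPM over the gene's own mean of 6 samples) for the 75 members with a mean of at least 10 CPM (box, quartiles; line, median; whiskers, 1.5 times the box; circles, members beyond), whose medians are -0.313, -0.208 and -0.253 in the PRATA samples and 0.121, 0.120 and 0.394 in the sham samples.

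Gene by gene the difference was broad and small. The low-count filter kept 89 of the 97 members. Of these, 88 had a log2 fold change below 0, against 48% of all 14919 genes tested, and the median was -0.48 (quartiles -0.58 to -0.37) against 0.02 over all genes. By edgeR's quasi-likelihood test 46 members were lower after PRATA at an unadjusted p under 0.05, where 10.1% of all genes were, and 0 were higher, where 8.19% of all genes were. With Benjamini-Hochberg adjustment over all genes 0 members passed 0.05, as did 0% of all genes, and the smallest adjusted p of a member was 0.156. DESeq2 called 16 members lower at an adjusted p under 0.05 (3.42% of all genes) and limma voom with sample quality weights 21 (4.87%). Neither tool called a member higher, where 1.57% and 3% of all genes were. No member was past a log2 fold change of -1 at an unadjusted p under 0.05, a line that 3.23% of all genes passed, and 0 were past 1, which 1.17% of all genes were.

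The count depended on single libraries, while the median stayed below 0. Without sham replicate 3, 14 of 91 members (15.4%) were lower at an unadjusted p under 0.05, beside 5.57% of all genes in the same fit. Without PRATA replicate 1 they were 18 of 91 (19.8%, beside 5.44%), and without PRATA replicate 3 they were 27 of 89 (30.3%, beside 7.5%). Without PRATA replicate 3 and sham replicate 1 together they were 26 of 88 (29.5%, beside 6.9%). Sham replicate 3 was the highest of the 6 samples in 70 of the 89 members, and PRATA replicate 1 the lowest in 40. The median log2 fold change stayed between -0.59 and -0.37 over 19 alternatives, with the smallest size without sham replicate 3. Between the 2 libraries with the high Rn7sl1, PRATA replicate 3 over sham replicate 1, the median log2 ratio of the members was -0.38. Of the 89 members 79 were below 0, and the median over all genes was 0.02.

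**Figure D2:**
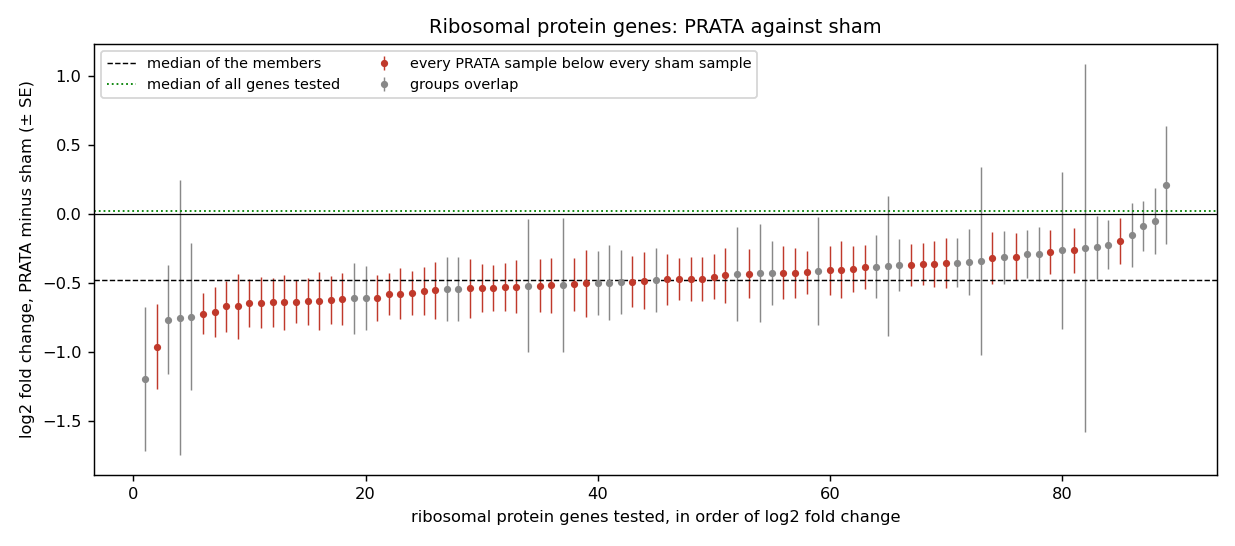
Log2 fold change (PRATA minus sham) ± SE of the 89 members tested, in order from lowest to highest. Red marks the 54 members whose groups do not overlap and grey the 35 that overlap; the dashed line is the members' median of -0.48 and the dotted line that of all genes, 0.02.

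In 54 members all PRATA values were below all sham values, which 11.2% of all genes showed, and in 0 members they were all above, which 11.6% of all genes showed. The members were close to each other: 77 of 89 had a log2 fold change between -0.75 and -0.25, and the median SE was 0.19. The large subunit had a median of -0.49 with 28 of 52 members lower at an unadjusted p under 0.05, and the small subunit -0.43 with 18 of 37. Of the 75 members with a mean of at least 10 CPM, all 75 were below 0 and 45 were lower at an unadjusted p under 0.05, while of the 22 rows under 10 CPM 14 were tested and 1 was. The median coefficient of variation of a member was 10.6% in the PRATA and 15.9% in the sham samples.

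Rps25, a protein of the small subunit in its head that internal ribosome entry sites use, had the smallest p of the members. The 3 PRATA samples had 27.9, 27.7 and 29.7 CPM, and the 3 sham samples 46.1, 47.1 and 47.3 CPM. The groups were far apart and both were tight, and PRATA stood at 60.7% of sham. The log2 fold change was -0.72 ± 0.15 (SE), with an edgeR quasi-likelihood p of 0.00135 and an adjusted p of 0.156. An unadjusted p under 0.05 held in 19 of 19 alternatives, as it did for Rpl36a, Rps3a and Rpl14.

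Rpl36a, of the large subunit, had 43.4, 46.6 and 45.5 CPM after PRATA against 65.4, 67.6 and 77.3 CPM after sham. The groups did not overlap, and the log2 fold change was -0.63 ± 0.15 (SE) with an edgeR adjusted p of 0.158. Rps3a, of the small subunit, had 134, 134 and 114 CPM against 194, 186 and 245 CPM. Its groups did not overlap either, with sham replicate 3 well above the rest, and the log2 fold change was -0.71 ± 0.18 (SE) with an edgeR adjusted p of 0.168. Rpl14, whose start carries the pyrimidine run of 14 bases shown above, had 115, 111 and 116 CPM against 169, 154 and 186 CPM. The PRATA values were close together and all below sham, and the log2 fold change was -0.58 ± 0.16 (SE) with an edgeR adjusted p of 0.168.

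The P-stalk, built from Rplp0, Rplp1 and Rplp2, is the arm of the large subunit that recruits the translation factors. Rplp1, the member with the highest mean CPM, had 353, 439 and 314 CPM after PRATA against 406, 552 and 603 CPM after sham. PRATA replicate 2 lay above sham replicate 1, so the groups overlapped, and the log2 fold change was -0.50 ± 0.23 (SE) with an edgeR p of 0.0648. Rplp0 overlapped in the same way, with 184, 273 and 228 CPM against 303, 266 and 394 CPM and a log2 fold change of -0.49. Rplp2 did not overlap, with 71.4, 83.0 and 86.5 CPM against 89.6, 106 and 141 CPM, a log2 fold change of -0.48 and an edgeR p of 0.0459. That call held in 11 of 19 alternatives, and without sham replicate 3 the log2 fold change was -0.27. It was also lost without PRATA replicate 1 (-0.43), 2 (-0.50) or 3 (-0.54). Rplp1 passed an unadjusted 0.05 without PRATA replicate 2 (-0.64) or sham replicate 1 (-0.67), and Rplp0 without PRATA replicate 2 (-0.64) or sham replicate 2 (-0.61). The fold changes of the 3 stalk genes were nearly equal, and they differed in the spread between samples.

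Rpl5 and Rpl11 join the smallest ribosomal RNA in a particle that enters the large subunit as it is assembled. Rpl5 had 238, 254 and 213 CPM after PRATA and 309, 332 and 448 CPM after sham. All PRATA samples lay below sham, and the log2 fold change was -0.63 ± 0.21 (SE) with an edgeR p of 0.0168. Rpl11 had 84.4, 85.0 and 73.4 CPM against 101, 107 and 125 CPM, again without overlap, and a log2 fold change of -0.45 ± 0.16 (SE) with an edgeR p of 0.0235. Both calls were lost without PRATA replicate 1 (-0.66 for Rpl5, -0.51 for Rpl11), PRATA replicate 3 (-0.56, -0.39) or sham replicate 3 (-0.44, -0.35), and that of Rpl11 without PRATA replicate 3 and sham replicate 1 together (-0.46).

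Rps6, the small subunit protein phosphorylated by the S6 kinases downstream of mTOR, varied widely within both groups. Its level was 71.9, 107 and 142 CPM after PRATA and 249, 56.5 and 153 CPM after sham. Sham replicate 2 was the lowest of all 6 and sham replicate 1 the highest, so that the log2 fold change of -0.52 had an SE of 0.48 and an edgeR p of 0.311. Without sham replicate 1 the log2 fold change was -0.0007, and without sham replicate 2 it was -0.91 with an edgeR p of 0.0243. Rpsa, a small subunit protein also known as a laminin receptor, had 174, 197 and 189 CPM against 233, 247 and 306 CPM, without overlap, and a log2 fold change of -0.49 ± 0.18 (SE) with an edgeR p of 0.0273. That call was lost without PRATA replicate 1 (-0.46), 2 (-0.53) or 3 (-0.50), without sham replicate 3 (-0.36), and without PRATA replicate 3 and sham replicate 1 together (-0.59).

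Rps27a, made as a fusion with ubiquitin, stood on 2 rows. ENSRNOG00000004426 had 93.7, 93.1 and 87.1 CPM after PRATA and 97.8, 128 and 142 CPM after sham, without overlap, a log2 fold change of -0.42 and an edgeR p of 0.0472. ENSRNOG00000034246 had 120, 120 and 72.4 CPM against 77.9, 155 and 189 CPM, a log2 fold change of -0.43 and an edgeR p of 0.238, or -0.74 with a p of 0.0273 without sham replicate 1. In the second row PRATA replicate 3 and sham replicate 1 were the lowest of the 6, as they were in the Rps19l2 row described below. Ribosomal protein genes have many near-identical copies in the genome, and how reads that match several copies were counted is not given in the sources used here, so levels of single rows under a shared symbol are uncertain. Fau, a fusion with a ubiquitin-like protein, falls outside the symbol rule. It had 0.516, 1.04 and 3.72 CPM after PRATA and 3.18, 0.780 and 1.51 CPM after sham, highest in PRATA replicate 3 and sham replicate 1. Its log2 fold change of -0.07 had an SE of 0.76 and an edgeR p of 0.930, so no difference of the members' size could be read from it. Rack1, also outside the rule and a scaffold on the small subunit, had a log2 fold change of -0.60 with an edgeR p of 0.0286.

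**Figure D3:**
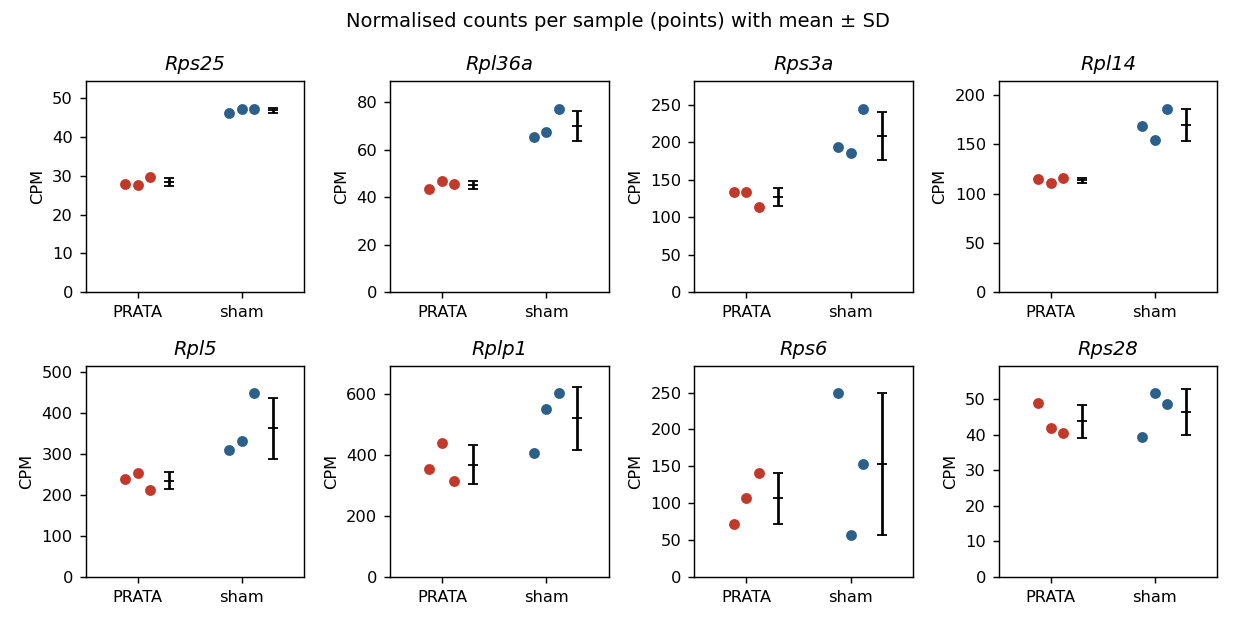
Level (CPM, TMM-scaled) of 8 members in each sample, PRATA in red and sham in blue, in replicate order from left to right, with the mean ± SD (n = 3) beside the points. Rps25, Rpl36a, Rps3a, Rpl14 and Rpl5 do not overlap between the groups, whereas Rplp1, Rps6 and Rps28 do.

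Scaled to the summed counts of the ribosomal protein genes instead of the whole library, no member passed the test. Here 0 members were lower and 0 higher at an unadjusted edgeR p under 0.05, where 1.74% and 34.3% of all genes were. This scaling sets the members near 0 by construction (median 0.01) and raises other genes after PRATA. It can show only members that depart from the set, and the 34.3% is no yardstick for them. The smallest edgeR p of a member was 0.0881. Of the 75 members with a mean of at least 10 CPM, 72 lay within 0.25 of 0 on the log2 scale. Rps28, a small subunit protein, had that smallest p: its level of 49.1, 41.8 and 40.4 CPM after PRATA and 39.2, 51.7 and 48.6 CPM after sham was nearly even, which placed it 0.39 above the ribosomal protein total. Rps21 and Rps15 followed by p, at 0.45 and 0.29. Of the members below the total, Rps27l, Rps25 and Rpl39 had the smallest p-values, at -0.48, -0.25 and -0.69, the last on 0.717 to 3.21 CPM. Leaving out single samples gave 0 to 2 members past an unadjusted 0.05.

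After Rplp1, Rpl13a and Rpl3, both of the large subunit, had the highest mean CPM, a scale without correction for length. Rpl13a had 390, 437 and 373 CPM after PRATA against 432, 465 and 569 CPM after sham, and Rpl3, which lies close to the peptidyl transferase centre, had 363, 373 and 300 CPM against 353, 469 and 570 CPM. In both, PRATA replicate 2 lay above sham replicate 1, and in Rpl3 PRATA replicate 1 did too. Their log2 fold changes were -0.29 ± 0.20 and -0.43 ± 0.23 (SE), with edgeR p-values of 0.183 and 0.103. Without sham replicate 1, Rpl3 had -0.61 with an edgeR p of 0.0233.

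At the other end of the members tested, Rpl10l, Rpl9 and Rps10l1 had 0.395 to 2.19 CPM over all samples, a few counts above the floor. Their log2 fold changes of -0.34, -0.38 and -0.26 had SEs of 0.68, 0.51 and 0.57, and the groups overlapped in each. At this depth no difference of the size seen in the other members could be read from them.

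The test and the order of the samples did not pick out quite the same members. Rps24, Rpl12, Rpl7l1 and Rpl18 had an unadjusted edgeR p under 0.05 although their groups overlapped, and these 4 were singled out after their values were seen. Rpl7l1 had a p under 0.05 in 11 of 19 alternatives and lost it without any single sample but sham replicate 2 (-0.46 to -0.72 on the log2 scale). In Rpl12, of the factor-binding base of the stalk, PRATA had 78.7, 99.4 and 107 CPM and sham 154, 99.6 and 162 CPM, so that the overlap came from sham replicate 2. Rps24 overlapped through sham replicate 1, with 93.5, 95.8 and 69.4 CPM against 94.9, 143 and 156 CPM. A further 12 members had groups apart and a p of 0.05 or more.

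Several ribosomal proteins have a second gene, often used in other tissues. Rps27l, the second gene of Rps27, had 4.78, 8.53 and 4.59 CPM after PRATA and 9.88, 11.2 and 13.9 CPM after sham. The groups did not overlap, and the log2 fold change of -0.96 ± 0.31 (SE) had an edgeR p of 0.0143 and an adjusted p of 0.192, a call lost without PRATA replicate 1 (-0.85), PRATA replicate 3 (-0.79) or sham replicate 3 (-0.81). Its counts were 15.3%, 25.1% and 11.4% of those of Rps27 in the PRATA samples and 16.5%, 30.5% and 34.3% in the sham samples, which overlap. The log2 ratio was lower by 0.66 after PRATA (difference -0.661), with an exact two-sided permutation p of 0.2 and 0.75 after Benjamini-Hochberg adjustment over 5 pairs. With 3 samples against 3 this test cannot go below 0.1.

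Rps4y2 was the single member tested with a log2 fold change above 0, at 0.21 ± 0.42 (SE), and its 4.65, 4.22 and 7.43 CPM after PRATA overlapped with 2.97, 7.65 and 3.78 CPM after sham. Its ratio to Rps4x differed by 0.759 on the log2 scale with an exact permutation p of 0.3. The ratios of Rpl7l1 to Rpl7, Rpl10l to Rpl10 and Rpl36al to Rpl36a differed by 0.094, -0.167 and 0.120, with exact permutation p-values of 0.9, 0.8 and 0.6. Over the 6 tested rows of the paralog list, which overlaps with the members, 2 were lower and 0 higher at an unadjusted p under 0.05. All genes had 10.1% lower and 8.19% higher, and the median log2 fold change of the 6 rows was -0.50. Rpl22l1, whose parent was not matched in the table, had 10.97, 9.003 and 6.721 CPM against 9.67, 13.6 and 14.4 CPM, which overlap, and a log2 fold change of -0.50 with an edgeR p of 0.103, or -0.68 with a p of 0.0417 without sham replicate 1. Rpl3l, typical of muscle, and Rpl39l, typical of testis, were at 0 counts in at least 1 sample, and no ratio was formed.

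In 2 of the 89 members tested the counts followed the library kind and not the operation. Rps29, of the small subunit, had 3, 3 and 146 counts in the PRATA and 172, 6 and 15 counts in the sham samples. The 2 high values are PRATA replicate 3 and sham replicate 1, the libraries with the high Rn7sl1, so the log2 fold change of -0.25 had an SE of 1.34. The Rps19l2 row ENSRNOG00000048199 ran the other way, with 85, 243 and 30 counts against 20, 113 and 384. These were the 2 members of 89 with at least a 2-fold gap between the 2 libraries and the other 4, 1 higher and 1 lower. Of all genes 0.798% and 0.456% had such a gap, so it was not particular to the members.

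Among the 8 members that did not pass the filter, 3 showed the same split. They were picked after their values were seen, and the share among other rows below the filter was not counted. Rpl38 had 7, 7 and 59 counts against 79, 3 and 9, Rpl35a 2, 1 and 14 against 16, 0 and 1, and Rpl30l1 0, 0 and 9 against 8, 1 and 1. In each, PRATA replicate 3 and sham replicate 1 held most of the counts. The other 5 were 2 rows of Rpl21, Rpl39l, Rpl3l and Rps15al4, each at 1.11 CPM or less in every sample.

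**Figure D4:**
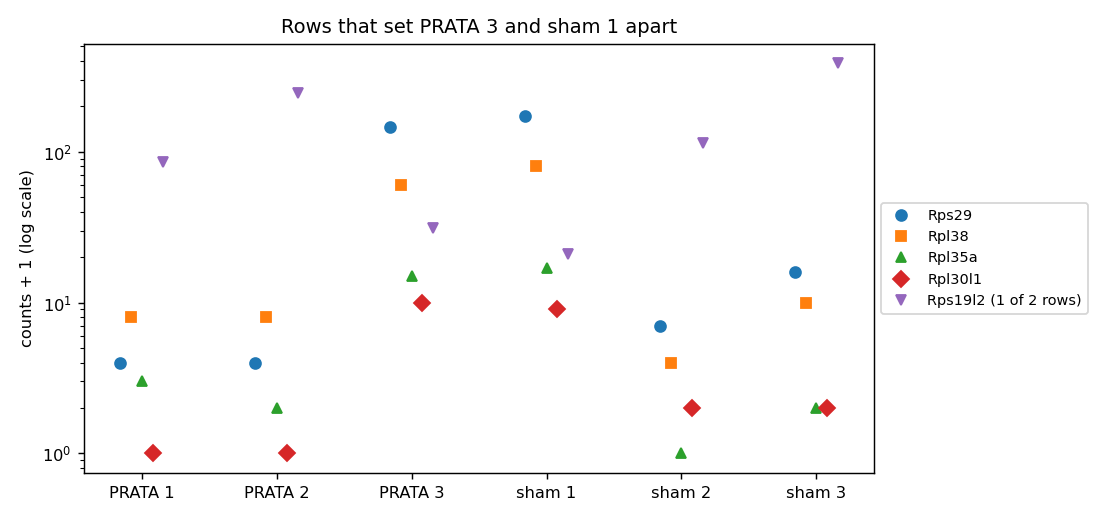
Counts + 1 (log scale) of 5 ribosomal protein rows in each of the 6 samples, with markers shifted sideways for clarity. Rps29, Rpl38, Rpl35a and Rpl30l1 are high in PRATA 3 and sham 1, and the Rps19l2 row is low in the same 2 libraries.

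Genes that work with the ribosomal proteins were read from lists, a few genes such as Ltv1 standing on more than 1. Counts in this and the next paragraph stand beside 10.1% of all genes lower and 8.19% higher at an unadjusted edgeR p under 0.05. Of 22 other TOP mRNAs, 13 were lower and 0 higher after PRATA at an unadjusted p under 0.05, with a median log2 fold change of -0.48, next to the -0.48 of the ribosomal protein genes. Npm1, a nucleolar chaperone of ribosome assembly, had 177, 163 and 176 CPM against 359, 296 and 430 CPM, a log2 fold change of -1.07 and an edgeR adjusted p of 0.156. Eef1b2 and Eif3m, of the elongation and initiation factors, had -0.64 and -0.67. Of 13 chaperones and import receptors of ribosomal proteins, 7 were lower and 0 higher, with a median of -0.52, among them Ltv1 (-0.99) and the importins Ipo7 (-0.80) and Ipo5 (-0.90).

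Nucleolar ribosome assembly factors, which build the subunits from the proteins, differed by more: 68 of 85 were lower and 0 higher at an unadjusted p under 0.05, with a median of -0.82. Nol8 had -1.72, Ddx18 -1.32 and Mrto4 -0.99. Genes that control TOP mRNA translation had a median of -0.06, with 2 of 17 lower, near the 10.1% of all genes, and 0 higher. These 2 were Eif4ebp1 (-0.95) and Eif4ebp2 (-0.75), repressors that bind the cap-binding protein Eif4e. Of 10 genes of ribosomal protein ubiquitination and turnover 3 were lower and 1 higher, with a median of -0.13: the ribophagy receptor Nufip1 had -0.65 and the ubiquitin-conjugating Ube2o 0.52. Mitochondrial ribosomal protein genes, which serve the separate ribosome of that organelle, had a median of 0.02, with 2 of 71 lower (Mrps2 -0.98, Mrps6 -0.67) and 1 higher (Mrpl4 0.56). The difference between lists was not tested.

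**Figure D5:**
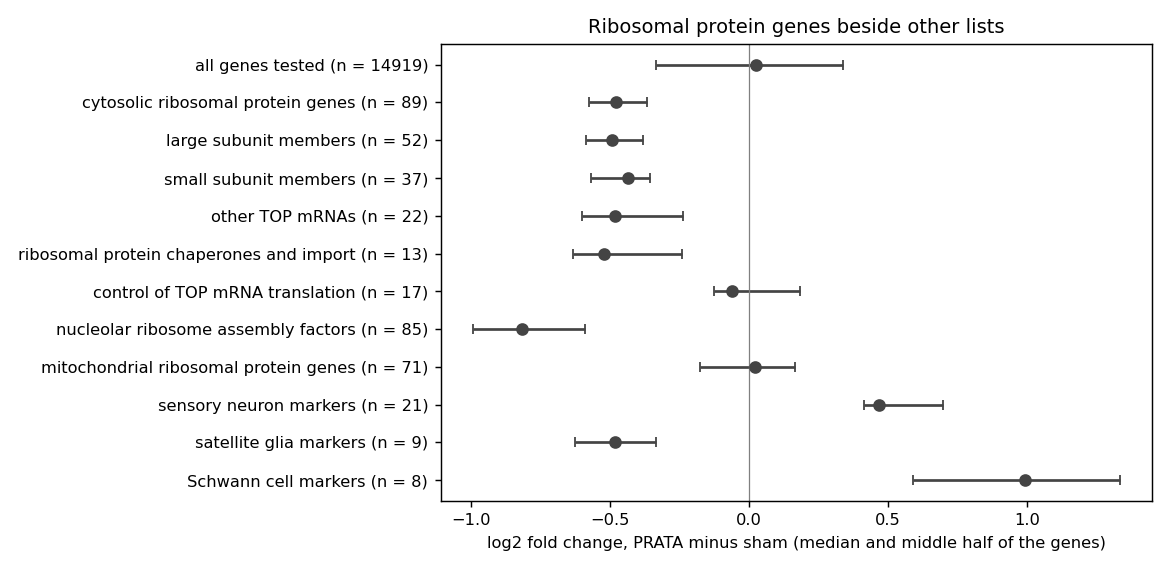
Median log2 fold change (PRATA minus sham) of each list, with bars from the lower to the upper quartile of its tested genes and n the number tested. The ribosomal protein genes (-0.48), other TOP mRNAs (-0.48) and chaperones (-0.52) lie to the left of all genes (0.02), nucleolar assembly factors (-0.82) further left, and mitochondrial ribosomal protein genes (0.02) at the level of all genes.

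Cell type markers were counted beside the 10.1% of all genes lower and the 8.19% higher at an unadjusted p under 0.05. Of 21 sensory neuron markers 5 were higher and 0 lower after PRATA at an unadjusted p under 0.05, with a median log2 fold change of 0.47 and sums of 22910, 15950 and 23550 CPM against 10940, 16840 and 13510 CPM, which overlap. Of 9 satellite glia markers 1 was lower, a share near that of all genes, and 0 higher, with a median of -0.48. Their sums, mostly Apoe, were 3961, 6363 and 3343 CPM against 7679, 4484 and 8735 CPM, which overlap too. Sox10, the glial transcription factor, had 59.9, 88.4 and 42.0 CPM against 214, 109 and 267 CPM, without overlap. Of 8 Schwann cell markers 3 were higher and 0 lower, with a median of 0.99 and sums of 582 to 1389 CPM. Of 7 fibroblast markers 1 was lower, also near the share of all genes, and 0 higher, with sums of 331 to 1987 CPM after PRATA and 923 to 1840 CPM after sham. Macrophage, mural, division and red blood cell markers held 0 genes past an unadjusted edgeR p of 0.05, and 1 of 6 endothelial markers, Vwf, was higher. By sign, 0 of 21 sensory neuron, 9 of 9 satellite glia and 0 of 8 Schwann cell markers were below 0, beside 48% of all genes. So were 6 of 7 fibroblast, 3 of 10 macrophage, 1 of 6 endothelial, 3 of 6 mural, 2 of 6 division and 0 of 4 red blood cell markers. The part of the cell makeup in the ribosomal protein result was not tested.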

How the data were processed

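Total RNA of isolated DRG neurons (6 ng) was made into stranded libraries with ribosomal RNA cleaved away, and sequenced in 6 samples. The authors deposited whole-number counts per gene. The study's methods describe HISAT2, StringTie and Cuffdiff for FPKM values, whereas the submitters' processing notes name STAR 2.7.3a, RSEM and DESeq2; which made the counts, with which build, annotation, strand and multi-mapping settings, is not given in the sources used here. Counts carry counting error at every level. The study's methods describe PCR amplification of the libraries and no molecular identifiers.

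In R 4.3.3, edgeR 4.0.16 filterByExpr (minimum count 10, minimum total 15) kept 14919 of 25689 genes. Counts were scaled by TMM (factors 0.953 to 1.10), and PRATA was compared with sham, 3 against 3, by the two-sided quasi-likelihood test without covariates, adjusted by Benjamini-Hochberg over all genes tested; SE is the log2 fold change over the square root of F. A second fit used the summed ribosomal protein counts as library size. Paralog ratios were tested by exact permutation. Alternatives used DESeq2 1.42.0, limma 3.58.1, other scalings and filters, and left-out samples. Scripts were tested on simulated counts. Sequences and coordinates are from RefSeq (GRCr8), matched by symbol.

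The members and lists were chosen with earlier results of these data known. Named genes are the 6 members with the smallest p in each direction, the 3 with the highest and the 3 tested with the lowest mean CPM, the P-stalk, Rpl5, Rpl11, Rps6, Rpsa, Rps27a, the paralogs and their parents, Fau and Rack1, up to 3 genes of each other list, and the 3 members on either side of the ribosomal protein total with the smallest p. Rps29, Rps19l2, Rpl38, Rpl35a and Rpl30l1 were named after their values were seen. Some genes that the rule names are not reported here.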

Additional observations from a re-analysis of the deposited data

How the results depend on the processing

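Over 19 alternatives the members' median log2 fold change stayed below 0 (-0.59 to -0.37), and 0 members were higher at an unadjusted p under 0.05 in each. The count lower at that threshold (46) was 39 to 64 under other scalings, filters and tests, 26 without PRATA replicate 3 and sham replicate 1 together, and 14 to 52 with single samples left out. Members lower at an adjusted p under 0.05 numbered 16 by DESeq2, 21 by voom with sample quality weights and 0 to 3 with single samples left out; the adjusted counts and a 7SL covariate (42 members) were added after seeing the data. The replicate block, the replicate number as a covariate, gave 15 members (16.9%) lower at an unadjusted p under 0.05, beside 6.08% of all genes. The members' median in that fit was -0.48. Samples of different groups were also correlated across genes, on log2 CPM less each gene's mean in its own group. These residuals, not the levels themselves, correlated at -0.388, -0.105 and -0.357 between same-numbered samples. No sample's residuals correlated best with those of its own number (highest with another number, 0.176 to 0.321). Scaled by library size alone, 66.7% of all genes with an unadjusted p under 0.05 were lower, against 55.3% with TMM. Relative to the ribosomal protein total, 0 to 2 members passed with single samples left out. With single samples left out, the paralog ratio differences spanned -0.076 to 0.279 for Rpl7l1, -0.866 to 0.228 for Rpl10l and -0.378 to 0.562 for Rpl36al, and log2 fold changes spanned -1.2253 to 0.5766 for Fau, -0.6591 to 0.0618 for Rps10l1, -0.1661 to 0.1029 for Rps21, -1.2287 to 0.0247 for Rpl10l and -0.0850 to 0.6958 for Rps4y2, which was -0.3491 without PRATA replicate 3 and sham replicate 1 together. Of the 19 alternatives, an unadjusted p under 0.05 held in 17 for Rack1, 16 for Eif4ebp1, 17 for Eif4ebp2, 18 for Nufip1, 13 for Ube2o, 15 for Mrps6 and 9 for Mrpl4. The cause was not tested. Low counts limit the 22 rows under 10 CPM, of which 14 were tested. Whether these rows are low through depth or through how reads were assigned to rows was not tested.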
